A study of Mus musculus with 2 samples.

Results

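Cell adhesion molecules of the immunoglobulin superfamily hold growing axons together in bundles and carry them along their paths. The 10 genes described here are Ncam1 and Ncam2 (the NCAM family), L1cam, Chl1, Nrcam and Nfasc (the L1 family), Cntn1, Cntn2 and Cntn4 (contactins), and Alcam. They were chosen by name, by GENCODE mouse symbol, and all 10 were found among the 43346 Ensembl genes of both gene tables. RNA came from mouse hindbrain, the brain region that forms pons, medulla and cerebellum, at embryonic day 12.5. Replicate 1 was a pool of 120 embryos and replicate 2 a pool of 88 embryos, each of both sexes, healthy, of strain B6NCrl and with no treatment or genetic change named in the labels. There were thus 2 libraries of 1 group and no contrast of conditions, and the comparisons below are between genes, between transcripts of a gene, and between the 2 pools. The deposited tables held 31633169 expected counts for replicate 1 and 29766460 for replicate 2.

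As background, the 10 proteins share stacked immunoglobulin domains outside the cell, which bind the same molecule or its relatives on a neighbouring axon. NCAM (in its main forms) and the L1 family members span the membrane, and in the L1 family the short cell-inside tail carries a FIGQY-type motif that binds ankyrins and so ties the contact to the spectrin skeleton. Contactins have no cell-inside tail: a glycosylphosphatidylinositol (GPI) anchor holds them in the outer membrane leaflet, and they act with partners on the same cell. At this age the hindbrain extends commissural, motor and ascending axons.

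The ankyrin-binding motif is shown because it is what the 4 L1 family members have in common. A search of the coding sequence of each member's leading coding transcript for the 5 codons of FIGQY, or the variants with A in place of Q or H in place of Y, found 1 match in each of the 4. The lines give the sense strand from the GENCODE M21 transcript sequences with 5 codons on either side, and capitals mark the motif.

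L1cam: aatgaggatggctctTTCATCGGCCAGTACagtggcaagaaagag
Chl1: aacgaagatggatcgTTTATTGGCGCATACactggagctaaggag
Nrcam: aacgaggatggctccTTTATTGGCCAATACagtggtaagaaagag
Nfasc: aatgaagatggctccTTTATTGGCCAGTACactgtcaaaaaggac

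L1cam, Nrcam and Nfasc encode FIGQY and Chl1 encodes FIGAY. The motif lies 28 codons before the end of the coding sequence in L1cam, Nrcam and Nfasc and 23 codons before it in Chl1.

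Short cassette exons, which some coding transcripts carry and others skip, are shown because the isoform results turn on them. Each line gives the exon in capitals, on the sense strand, with 9 bases of the neighbouring exons in the transcript that carries it. Coordinates are those of the exon alone on mm10 (GENCODE M21). Ncam1 (minus strand) has a 30-base exon at chr9:49550540-49550569, known as VASE, which alters an immunoglobulin domain and is known to lower the support NCAM gives to neurite growth, and a 15-base exon at chr9:49541888-49541902. L1cam (minus strand) has a 15-base exon at chrX:73867022-73867036 and a 12-base exon at chrX:73855652-73855663 that inserts residues into the cell-inside tail. Both L1cam exons are known to be used by neurons and skipped in many other cells. Nrcam (plus strand) has a 30-base exon at chr12:44566840-44566869, and Nfasc (minus strand) has an 18-base exon at chr1:132637864-132637881.

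Ncam1 exon of 30 bases: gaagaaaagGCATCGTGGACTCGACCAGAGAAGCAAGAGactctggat
Ncam1 exon of 15 bases: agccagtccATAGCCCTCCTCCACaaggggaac
L1cam exon of 15 bases: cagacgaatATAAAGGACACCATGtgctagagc
L1cam exon of 12 bases: cgagtacagGTCCCTGGAGAGtgacaatga
Nrcam exon of 30 bases: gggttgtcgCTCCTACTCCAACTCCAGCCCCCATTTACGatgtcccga
Nfasc exon of 18 bases: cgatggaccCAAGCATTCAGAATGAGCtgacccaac

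In the L1cam transcript that carries it, the 12-base exon ends 130 bases before the first base of the FIGQY motif.

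All 10 genes were expressed, at levels that spread widely from gene to gene. Levels are given in TPM (a transcript's reads per length, scaled so that all RNA of a library, spike-ins included, sums to the same total), as mean ± SD over the 2 libraries. The median of the 10 was 34.1 TPM in replicate 1 and 34.7 TPM in replicate 2. The 13520 protein-coding genes at 1 TPM or more in both libraries had medians of 21.2 TPM in replicate 1 and 21.7 TPM in replicate 2. Counting protein-coding transcripts alone, the median of the 10 was 24.8 TPM. The median of the 13520 genes was not computed that way, so the gap between these medians is for all transcripts only. Ncam1 alone gave more TPM than any family of the other 9 genes, and the sum of the 10 was 422 TPM in replicate 1 and 475 TPM in replicate 2. By family, the NCAM pair made 42.8% ± 2.09 of that sum, the L1 family 32.2% ± 0.286, the contactins 18.1% ± 0.912 and Alcam 6.87% ± 0.896 (SD, n = 2). In whole tissue, more cells that express a gene and more RNA per cell cannot be told apart.

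**Figure D1:**
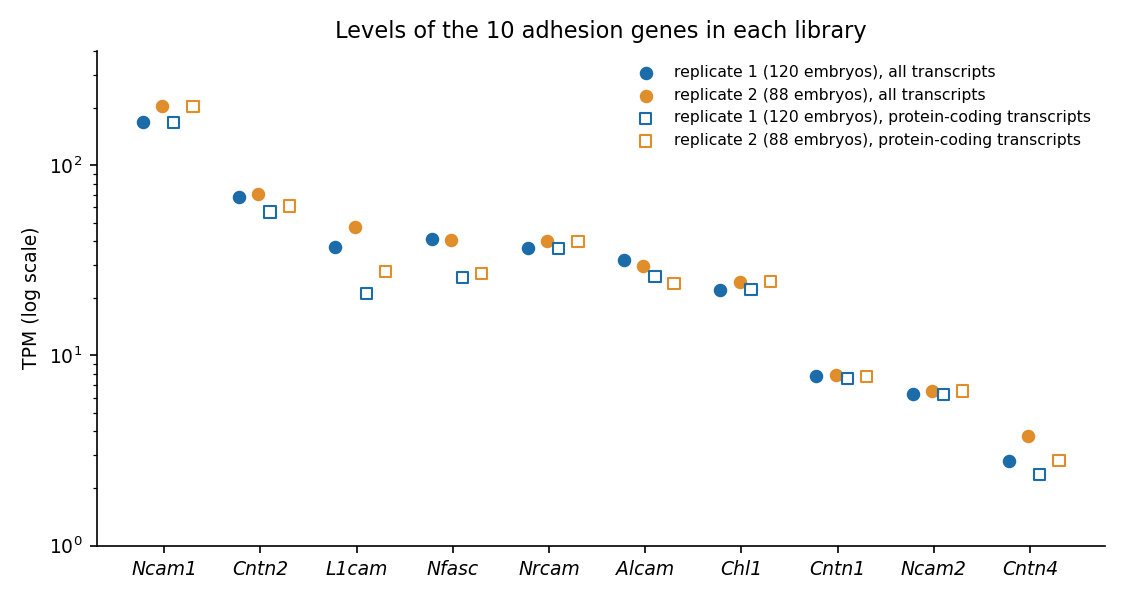
TPM (log axis) of each gene in replicate 1 (left, blue) and replicate 2 (right, orange); filled circles count all transcripts of the gene and open squares its protein-coding transcripts. Ncam1 stands above the rest at 168 and 204 TPM, and L1cam and Nfasc drop most when other transcript types are left out.

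Ncam1 (ENSMUSG00000039542.11, chr9:49502136-49798925, minus strand) encodes NCAM, the main carrier of polysialic acid. It had 168 TPM (19206 expected counts) in replicate 1 and 204 TPM (21464 expected counts) in replicate 2. Its mean of 186 ± 25.3 TPM lay at or above 94.4% of the 13520 expressed protein-coding genes. Ncam2 (ENSMUSG00000022762.13, chr16:81200697-81626828, plus strand), known for sorting olfactory axons, had 6.24 TPM in replicate 1 and 6.52 TPM in replicate 2. Its mean of 6.38 ± 0.198 TPM lay at or above 21.8% of those genes, so the NCAM pair held both a high and a low member.

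The 4 L1 family genes, receptors that promote axon growth and bundling, lay in the middle of the range of the 10. L1cam (ENSMUSG00000031391.14, chrX:73853778-73896105, minus strand) had 37.3 TPM (2236 counts) in replicate 1 and 47.3 TPM (2690 counts) in replicate 2. Nfasc (ENSMUSG00000026442.10, chr1:132564690-132741797, minus strand), which later assembles axon initial segments and nodes, had 40.9 TPM (3439 counts) in replicate 1 and 40.7 TPM (3354 counts) in replicate 2. The library values of L1cam and Nfasc overlapped. Nrcam (ENSMUSG00000020598.11, chr12:44328885-44601964, plus strand), a receptor of commissural and sensory axons, had 36.6 TPM (5112 counts) in replicate 1 and 39.8 TPM (5136 counts) in replicate 2. Chl1 (ENSMUSG00000030077.9, chr6:103510586-103750211, plus strand), the close homologue of L1, had 22.2 TPM (3217 counts) in replicate 1 and 24.4 TPM (3272 counts) in replicate 2. Chl1 was below the other 3 in both libraries.

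Among the contactins, Cntn2 stood far above the others. Cntn2 (ENSMUSG00000053024.10, chr1:132509427-132543256, minus strand) encodes TAG-1, known for its transient presence on young axons. It had 68.4 TPM (8394 counts) in replicate 1 and 71.0 TPM (7980 counts) in replicate 2, and its mean of 69.7 ± 1.90 TPM lay at or above 81.7% of expressed protein-coding genes. Cntn1 (ENSMUSG00000055022.10, chr15:92051165-92341967, plus strand), a partner of Caspr proteins, had 7.78 TPM (770 counts) in replicate 1 and 7.91 TPM (746 counts) in replicate 2. Cntn4 (ENSMUSG00000064293.10, chr6:105677660-106699310, plus strand), which guides axons of the olfactory and visual systems, had 2.80 TPM (191 counts) in replicate 1 and 3.79 TPM (239 counts) in replicate 2. It was the lowest of the 10 in both libraries, yet its counts were far above the limit of 3 counts that a reading of 0 would allow. Alcam (ENSMUSG00000022636.9, chr16:52248996-52454074, minus strand), which is found on motor and retinal axons, had 31.7 TPM (2673 counts) in replicate 1 and 29.6 TPM (2308 counts) in replicate 2.

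In order of mean level the genes ran Ncam1, Cntn2, L1cam, Nfasc, Nrcam, Alcam, Chl1, Cntn1, Ncam2 and Cntn4. Of the 9 neighbouring pairs, 8 were apart in the sense that both library values of the higher gene lay above both of the lower. The exception was L1cam with Nfasc, and Nfasc lay only 1.07 times above Nrcam. The widest steps were Chl1 over Cntn1 (2.97 times) and Ncam1 over Cntn2 (2.67 times). Part of this order rested on transcripts that GENCODE M21 does not type as protein-coding. Counting protein-coding transcripts alone, L1cam had 21.2 TPM in replicate 1 and 27.7 TPM in replicate 2, and Nfasc 25.7 TPM in replicate 1 and 27.0 TPM in replicate 2. Nrcam then followed Cntn2. The library values of Nfasc and Alcam, of Alcam and L1cam, and of L1cam and Chl1 overlapped, which left 6 of 9 pairs apart.

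The isoform tables listed 65 transcripts of the 10 genes, of which 40 are typed as protein-coding and 15 as retained introns. A transcript's share is its percentage of the gene's TPM, as the authors' quantification divided reads among whole transcripts, and no reads across single splice junctions were counted. Of the 65, 21 had a mean share of 10% or more: 17 protein-coding transcripts and 4 with a retained intron.

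**Figure D2:**
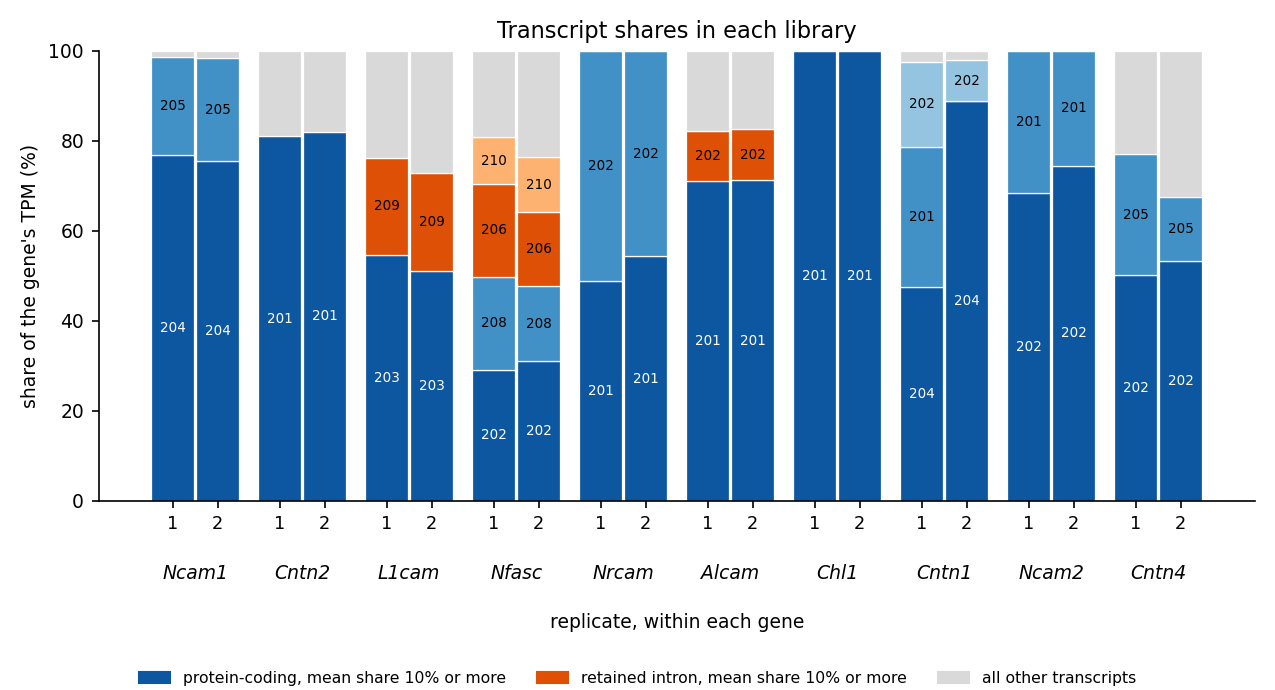
Share of each gene's TPM (%) taken by each transcript in replicate 1 (left bar) and replicate 2 (right bar), with transcript numbers inside the bars; blue marks protein-coding transcripts and orange retained introns with a mean share of 10% or more, and grey all others. Shares lie close in both libraries for Ncam1, Cntn2 and Alcam, while Cntn1-204 takes 47.4% in replicate 1 and 88.8% in replicate 2.

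Ncam1 was mostly of the transmembrane NCAM-140 kind. Ncam1-204, which skips an 801-base exon of the cell-inside tail (chr9:49506853-49507653), took 76.9% in replicate 1 and 75.4% in replicate 2. Ncam1-205, the one listed transcript with that exon, which marks NCAM-180, took 21.7% in replicate 1 and 22.9% in replicate 2. Ncam1-201 has a 74-base coding segment of its own and lacks the tail, as in the GPI-linked NCAM-120. Ncam1-201 took 0.0800% (6 counts) in replicate 1 and 0.110% (10 counts) in replicate 2. Ncam1-205 was also the one expressed transcript with the VASE exon and the 15-base exon printed above and with a 3-base exon. The shares of these 4 features are therefore a single number here and cannot be told apart. In addition its annotated coding sequence is open at the 5′ end. For Ncam2, Ncam2-202 with 837 codons took 68.5% in replicate 1 and 74.5% in replicate 2. Ncam2-201, with 727 codons, took 31.5% in replicate 1 and 25.5% in replicate 2. It has 16 exons against 18 in Ncam2-202, and a 104-base coding segment that Ncam2-202 lacks. By expected counts Ncam2-202 took 61.1% in replicate 1 and 67.9% in replicate 2. OCAM, the Ncam2 protein, is known in transmembrane and GPI-linked forms.

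L1cam was led by L1cam-203, with 54.6% of TPM in replicate 1 and 51.1% in replicate 2. By expected counts its share was larger, 86.9% in replicate 1 and 78.9% in replicate 2. L1cam-203 carries the 15-base exon and skips the 12-base one. Among coding transcripts that span it, the 15-base exon was present in 99.7% of TPM in replicate 1 and 100% in replicate 2. The 12-base exon, carried by L1cam-202 alone, was present in 2.48% (49 counts of that transcript) in replicate 1 and 12.9% (313 counts) in replicate 2. Both libraries thus had the 15-base exon in nearly all coding L1cam TPM and L1cam-202 in a small part, which varied between the pools. L1cam-202 has 29 exons over 5113 bases, and L1cam-203 has 27 exons over 5126 bases. They therefore differ in more than the 12-base exon, and the value of that exon is that of the whole transcript. L1cam-209, a 705-base transcript with a retained intron, took 21.6% in replicate 1 and 21.8% in replicate 2.

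Nrcam was divided almost evenly: Nrcam-201 took 48.9% in replicate 1 and 54.3% in replicate 2, and Nrcam-202 took 51.1% in replicate 1 and 45.7% in replicate 2. Which one led differed between the libraries. Nrcam-201 has the 30-base exon printed above, a 36-base exon and a 153-base exon that Nrcam-202 lacks, so these 3 exons share one value. Chl1 had a single listed transcript. For Chl1-201, both Nrcam transcripts and Ncam2-202, the length in the authors' tables differs from that in GENCODE M21, so their exon content is that of the later annotation.

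The leading transcript of Nfasc, Nfasc-202, took 29.1% of TPM in replicate 1 and 31.0% in replicate 2. By expected counts it took 63.2% in replicate 1 and 63.3% in replicate 2. Its share was the lowest leading share of the 10 by TPM but not by expected counts, where Nrcam-201 was lowest at a mean of 52.3%. Nfasc-202 has the exon content of the neuronal form, NF186: it carries 3 exons of 153, 117 and 237 bases and skips a pair of 205 and 116 bases. The opposite arrangement, known from the glial form, NF155, is that of Nfasc-201, Nfasc-203 and Nfasc-205. Among coding transcripts that span them, the 3 exons were present in 68.8% of TPM in replicate 1 and 62.4% in replicate 2. Nfasc-208, a coding transcript of 899 codons that stops early, took 20.7% in replicate 1 and 16.8% in replicate 2. It does not span the 3 exons and is left out of those percentages. It has a 245-base coding segment that covers the 116-base exon and that Nfasc-202 skips. Of all coding Nfasc TPM, Nfasc-202 made 46.2% in replicate 1 and 46.6% in replicate 2. The 18-base exon printed above was present in 52.2% of spanning coding TPM in replicate 1 and 48.8% in replicate 2. Nfasc-203 was listed at 0 in replicate 1 and took 13.3% (362 counts) in replicate 2. The retained-intron transcripts Nfasc-206 and Nfasc-210 took 20.6% and 10.4% in replicate 1, and 16.4% and 12.1% in replicate 2.

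**Figure D3:**
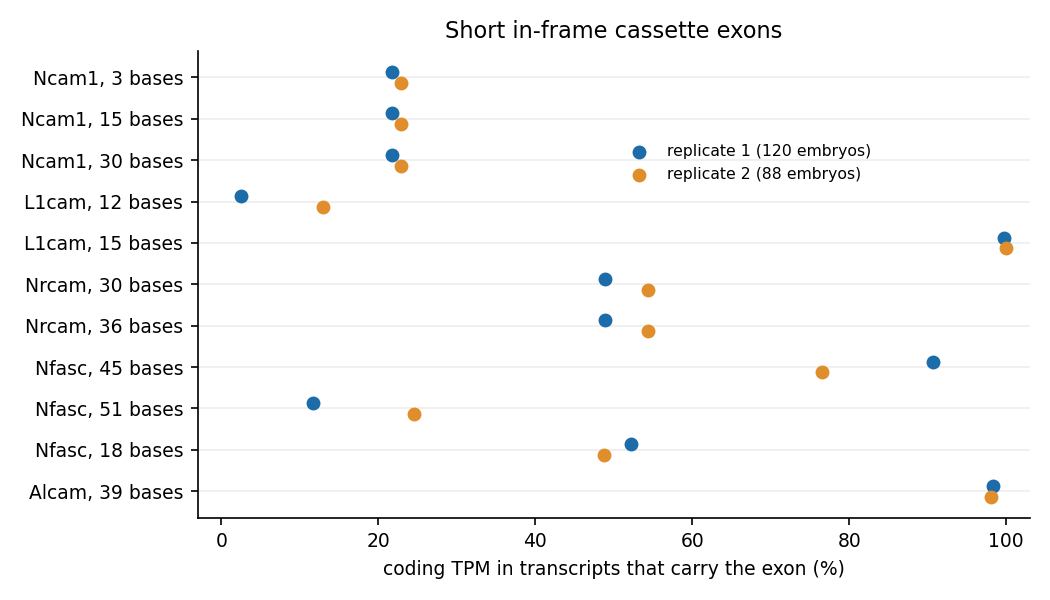
Percentage of the TPM of coding transcripts spanning each short in-frame exon that comes from transcripts with the exon, in replicate 1 (blue) and replicate 2 (orange). The 3 Ncam1 exons lie at 21.7% and 22.9%, the L1cam 15-base and Alcam 39-base exons above 98%, and the L1cam 12-base exon at 2.48% and 12.9%.

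For Cntn2, the leading transcript agreed closely between the libraries, with Cntn2-201 at 81.0% in replicate 1 and 82.0% in replicate 2. By expected counts Cntn2-201 took 88.6% in replicate 1 and 90.4% in replicate 2. Cntn1 had the widest difference in share between the libraries. Cntn1-204 took 47.4% (390 counts) in replicate 1 and 88.8% (684 counts) in replicate 2. Cntn1-201 took 31.3% (256 counts) in replicate 1 and was listed at 0 in replicate 2, and Cntn1-202 took 18.8% in replicate 1 and 9.17% in replicate 2. All 3 have the same 1020-codon coding sequence and differ outside it, so all coding Cntn1 TPM of either library has that sequence. Among 8166 protein-coding genes with several transcripts and at least 5 TPM in both libraries, 99.7% had a smaller difference in the share of the leading transcript than the 41.4 points of Cntn1, and the median was 3.06 points. Cntn4-202 with 1026 codons took 50.1% in replicate 1 and 53.2% in replicate 2, and Cntn4-205 with 705 codons took 26.9% (40 counts) in replicate 1 and 14.2% (26 counts) in replicate 2. The mean share of Cntn4-202, 51.6%, depended on the estimate: it was 29.5% by the posterior mean TPM and 72.9% by expected counts. Alcam-201 took 71.0% in replicate 1 and 71.2% in replicate 2, and the retained-intron transcript Alcam-202 took 11.2% in replicate 1 and 11.4% in replicate 2. By expected counts Alcam-201 took 94.7% in replicate 1 and 95.0% in replicate 2. A 39-base Alcam exon (chr16:52268790-52268828) was present in 98.3% of spanning coding TPM in replicate 1 and 98.1% in replicate 2.

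L1cam, Nfasc, Alcam and Cntn2 gave more of their TPM to transcripts of other types than most genes did, L1cam and Nfasc the most. These types took 42.3% ± 1.29 of L1cam TPM and 35.3% ± 2.48 of Nfasc TPM (SD, n = 2), against a median of 8.66% over the 8166 genes. Of those genes, 86.5% had a lower share than L1cam and 82.2% a lower share than Nfasc. The share was 18.5% ± 0.917 for Alcam, with 66.3% of genes lower, and 15.3% ± 2.02 for Cntn2, with 61.9% lower. It was 2.30% ± 0.387 for Cntn1 and 20.7% ± 7.61 for Cntn4, which is under 5 TPM and so outside the 8166. By expected counts these transcripts held 10.0% ± 0.820 for L1cam and 10.8% ± 0.102 for Nfasc, since most are short and TPM divides by length. The count share was 10.4% ± 1.35 for Cntn2, near those of L1cam and Nfasc, and 1.74% ± 0.106 for Alcam. The comparison with other genes was made by TPM only. Ncam1, Ncam2, Nrcam and Chl1 had no listed transcript of another type.

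Between the pools, each of the 10 genes differed by 1.34-fold or less after TMM scaling. Differences are log2 ratios of replicate 1 over replicate 2 after TMM scaling, with the standard error of counting alone. A two-sided exact binomial test on counts, adjusted by Benjamini-Hochberg over 19209 genes with 10 or more counts, asks only whether the 2 libraries differ beyond counting error. By this test, 6 of the 10 were called at an adjusted p of 0.05, 5 lower and 1 higher in replicate 1. Over all genes tested, 20.0% were called, 10.5% lower and 9.49% higher in replicate 1, and 26.4% among genes with at least the 430 counts of the lowest member. The edgeR exact test, which adds a spread between libraries estimated over all genes as a common dispersion of 0.00814, called none of the 10, and none had an unadjusted p under 0.05. It called 1.57% of all genes tested, and 1285 of the 19209 had an unadjusted p under 0.05. The lowest unadjusted edgeR p of the 10 was 0.0521, for L1cam. With 1 library a pool, that dispersion comes from the same 2 libraries it is used to compare and contains their difference, so a gene it leaves uncalled is not shown to be equal in the pools.

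L1cam was lower in replicate 1 by the binomial test, with a log2 ratio of -0.37 ± 0.0413 (SE, counting) and an exact binomial adjusted p of 4.05e-17. Ncam1 was lower as well, at -0.26 ± 0.0143 (exact binomial adjusted p = 7.14e-72). Cntn4 stood at -0.42 ± 0.140, from the fewest counts (exact binomial adjusted p = 0.0182). Chl1 at -0.13 and Nrcam at -0.11 were smaller differences in the same direction, and Alcam at 0.11 was the one called higher in replicate 1. Nfasc at -0.07, Cntn1 at -0.06, Cntn2 at -0.03 and Ncam2 at -0.02 were not called. The median of the 10 was -0.09, against 0.00 over all genes tested, and 9 of the 10 ratios lay below 0, against 49.5% of all genes.

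**Figure D4:**
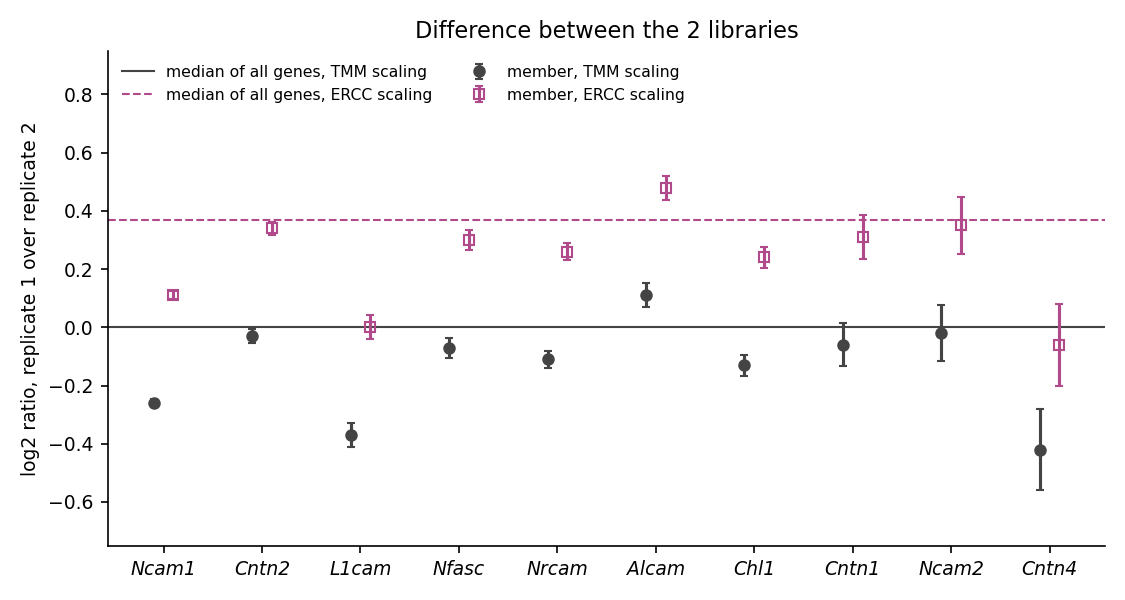
Log2 ratio of replicate 1 over replicate 2 for each gene, with the standard error of counting, after TMM scaling (filled circles) and after scaling to the ERCC spike-ins (open squares); lines mark the median of all genes under each. With TMM, 9 of the 10 genes lie below the median line, L1cam, Ncam1 and Cntn4 farthest, and Alcam lies above it; ERCC scaling shifts genes and median together.

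Scaling to the ERCC spike-ins moved the median of all genes to 0.37, and then 8 of the 10 were called, all higher in replicate 1. This scaling adds nearly the same amount to every log2 ratio, so the place of the 10 among other genes is the same by construction, and the directions given are relative to the other genes.

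Markers of cell types and tissues also differed between the pools. All 10 skeletal muscle genes were lower in replicate 1 by both tests (summed 69.9 TPM in replicate 1 and 301 TPM in replicate 2), with Actc1, the cardiac-type actin of embryonic muscle, having 27.4 TPM in replicate 1 and 112 TPM in replicate 2. Muscle is also known to express Ncam1. All 5 genes of epithelium and inner ear were higher in replicate 1 by the binomial test, 3 of them also by the edgeR exact test (332 TPM in replicate 1 and 156 TPM in replicate 2). All 6 cartilage genes were lower in replicate 1 by the binomial test and 3 of them by the edgeR exact test. Of 8 neuron genes, 5 were lower and 2 higher in replicate 1 by the binomial test and none were called by edgeR (2665.3 TPM in replicate 1 and 2802.7 TPM in replicate 2). Among 8 hindbrain genes, 6 were lower by the binomial test and none by edgeR, and 7 were at 1 TPM or more in both libraries, as were 2 of 5 forebrain genes. Of 7 genes of meninges and mesenchyme, 6 were lower in replicate 1, and of 6 erythroid genes 5 were higher, by the binomial test, with none called by edgeR in either list. The part of these differences in the ratios of the 10 genes was not tested.

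Genes of further lists, for molecules these 10 work with or resemble, were mostly at 1 TPM or more. Of 29 other immunoglobulin adhesion genes, 27 were at 1 TPM or more in both, with medians of 12.0 TPM in replicate 1 and 12.7 TPM in replicate 2. Highest were Bsg, the widely expressed basigin, at 535 ± 1.70 TPM, Igsf8, a tetraspanin partner, with 130 TPM in replicate 1 and 119 TPM in replicate 2, Cadm1, a synaptic adhesion molecule, at 100 ± 6.59 TPM, and Nptn, the basigin relative neuroplastin, at 74.0 ± 1.88 TPM (SD, n = 2). Lowest was Thy1, a marker of mature axons, with 0.0300 TPM in either library. By the binomial test 6 of 28 tested were higher and 2 lower in replicate 1, and none were called by edgeR.

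For the links from L1 family tails to the skeleton, 13 of 14 genes were at 1 TPM or more. Sdcbp (syntenin, a PDZ scaffold) had 267 ± 3.13 TPM, Sptan1 (alpha spectrin) 130 ± 1.61 TPM, Rdx (radixin) 108 ± 3.78 TPM and Sptbn1 (beta spectrin) 97.9 ± 1.87 TPM. Sptbn4, the beta spectrin of mature nodes, was lowest, with 0.900 TPM in replicate 1 and 0.700 TPM in replicate 2. By the binomial test 4 of the 14 were lower and none higher in replicate 1, and none were called by edgeR.

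Of 14 contactin partners, 11 were at 1 TPM or more in both libraries. Aplp1, App and Aplp2, the amyloid precursor family, led at 281 ± 6.30, 250 ± 0.488 and 170 ± 1.63 TPM, followed by the receptor phosphatase Ptprg at 43.2 ± 1.72 TPM. Cntnap3, a Caspr family gene, was lowest, with 0.0700 TPM in replicate 1 and 0.0100 TPM in replicate 2. By the binomial test 2 of 13 were higher and 3 lower in replicate 1. The edgeR exact test called 1, lower in replicate 1: the matrix gene Tnc, singled out after its values were seen, which had 15.7 TPM in replicate 1 and 27.2 TPM in replicate 2.

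All 8 genes for polysialic acid synthesis and shedding were at 1 TPM or more. Adam10, a sheddase of L1 and NCAM, had 76.3 ± 5.98 TPM, the polysialyltransferase St8sia2 52.3 ± 4.96 TPM and Bace1 37.3 ± 1.15 TPM. Bace2 was lowest at 1.39 ± 0.0990 TPM. By the binomial test 1 was higher and 2 were lower in replicate 1.

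All 12 coreceptor and signalling genes were detected, led by Cd24a (a GPI-linked partner of L1) at 616 ± 36.7 TPM, Gap43 (a growth cone protein) at 359 ± 7.90 TPM, Itgb1 (an integrin) at 157 ± 10.5 TPM and Ncan (neurocan, a proteoglycan that binds NCAM and L1) at 80.6 ± 7.86 TPM. The kinase gene Src was lowest at 27.9 ± 1.00 TPM. By the binomial test 1 was higher and 3 were lower in replicate 1.

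The 15 splicing regulators were all at 1 TPM or more. Elavl4, a neuronal RNA-binding protein, had 227 ± 8.08 TPM, the neural Ptbp2 170 ± 3.54 TPM, its relative Ptbp1, which represses many neural exons, 165 ± 2.44 TPM and Rbfox2 91.0 ± 3.73 TPM. Nova2 was lowest at 12.5 ± 0.552 TPM. By the binomial test 3 were higher and 6 lower in replicate 1, and edgeR called none of the genes of these last 3 lists.

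Reads of overlapping genes may be shared, because no source used here states if strand was kept. The antisense gene Gm11149 overlaps Ncam1 exons and had 2.31 TPM in replicate 1 and 1.76 TPM in replicate 2. Arhgap4 overlaps L1cam exons on the same strand and had 2.73 TPM in replicate 1 and 2.18 TPM in replicate 2. No other member shares annotated exon bases with another gene in GENCODE M21.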

How the data were processed

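For each of 2 libraries the authors deposited 1 gene table and 1 transcript table on mm10 with GENCODE M4, per the file notes; no aligner or quantifier is named in the sources used here. Per the file headers, the deposited tables hold expected counts, TPM, FPKM and, for transcripts, the percent of the gene's TPM (IsoPct). FPKM was not used in any result. Per the labels' protocols, libraries started from 10 ng of RNA longer than 200 nt with ERCC spike-ins, and the spike-ins took 3.41% of counts in replicate 1 and 4.36% in replicate 2. Counts without molecular identifiers are not independent molecules, so standard errors of counting cover counting error only.

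Names, coordinates, transcript types and sequences came from GENCODE M21, which named 42462 of 43346 Ensembl genes. Expected counts were rounded to whole numbers. With 1 library a pool no quasi-likelihood fit has residual degrees of freedom, so the exact binomial test (Python 3.11.15, scipy 1.17.1) used TMM sizes from edgeR 4.0.16 (R 4.3.3), with a prior count of 0.5 in log2 ratios; the script was tested on simulated data. DESeq2 1.42.0 gave the alternative size factors. Cassette exons are coding exons that other coding transcripts span and skip, at 1 TPM or more in all. The 10 genes were given by name. From each further list the 4 highest and the lowest by mean TPM are named, except 1 gene that is not reported here. Members and lists were chosen with earlier results of these data known.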

Additional observations from a re-analysis of the deposited data

How the results depend on the processing

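The median of the 10 genes, 34.4 TPM, was 38.1 TPM with spike-ins left out of the total, 33.7 TPM by the posterior mean TPM and 24.8 TPM over protein-coding transcripts, a setting chosen after seeing the data, and between 34.1 and 34.7 TPM with 1 library left out. The 6 calls between the pools were 0 with the edgeR exact test, 6 with relative log expression (RLE) size factors or library totals, 8 with ERCC scaling and 5 without the filter on low counts (Alcam was lost). ERCC scaling, under which the median of all genes was 0.37, turned the log2 ratio to 0.11 for Ncam1, 0.35 for Ncam2, 0.0010 for L1cam, 0.24 for Chl1, 0.26 for Nrcam, 0.30 for Nfasc, 0.31 for Cntn1 and 0.34 for Cntn2; under it 97.6% of called genes were higher in replicate 1, against 47.4% with TMM. All 10 genes were at 1 TPM or more by either TPM estimate, and 7 were at 10 TPM or more. Shares of leading transcripts by expected counts rather than TPM were 82.9% for L1cam, 63.3% for Nfasc and 72.9% for Cntn4, so that Nfasc no longer had the lowest. Expected counts also moved the leading share from 71.1% to 94.8% for Alcam, from 81.5% to 89.5% for Cntn2 and from 71.5% to 64.5% for Ncam2. By the posterior mean the Cntn4 share was 29.5%. With 2 libraries each SD rests on a single difference. No paired analysis was possible because there is 1 group.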
